A study of Saccharomyces cerevisiae with 15 samples.

Results

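The genes described here encode the proteins of the cytosolic ribosome of budding yeast, chosen as the rows of the count table whose standard symbol is RPL or RPS followed by a number and an optional A or B. Of the 7127 rows, 132 met this rule, 76 for the large subunit (RPL) and 56 for the small subunit (RPS), and 114 of them form 57 pairs of A and B paralogs. All 132 passed the filter on low counts in every fit. RNA was sequenced from 15 libraries in 5 groups of 3 replicates, all from haploid MATa cells of the W303 background with the auxotrophic alleles ade2-1, leu2-3, trp1-1 and his3-11,15 and a *ura3* mutation. MTSMge1 cells overexpressed the presequence of Mge1 (residues 1 to 44) fused to mCherry, with *PDR3* or with *pdr3*Δ (*pdr3::HIS3*). MTSMss116 cells overexpressed residues 1 to 53 of Mss116 fused to mCherry and had *PDR3*. *PSD1* OE cells overexpressed Psd1, with *PDR3* or with *pdr3*Δ. Each construct was driven by a galactose-inducible promoter and induced with 1% galactose for 4 hours after growth in 2% raffinose. The strain list gives a 2-micron plasmid for every group except *PSD1* OE with *PDR3*, where *GAL-PSD1* is listed with *URA3*, while the labels describe an empty 2-micron plasmid in all samples. The labels name YPR medium, the study's methods synthetic medium with raffinose, and the labels also name a count file of its own for the 3 MTSMss116 libraries. Each of these points limits how far a difference between constructs can be ascribed to the overexpressed protein. The plasmid likewise limits how far a difference between *PDR3* and *pdr3*Δ cells under Psd1 can be ascribed to *PDR3*. The *HIS3* marker goes with *pdr3*Δ under both constructs. No uninduced or empty-vector culture was analysed here, and nothing in the labels says whether replicates were separate cultures, so p-values measure the spread between these libraries only.

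The cytosolic ribosome is built from ribosomal RNA and a large set of small, mostly basic proteins. After an ancient duplication of the yeast genome many ribosomal protein (RP) genes were kept as pairs whose products are nearly or fully identical. RP genes are among the most transcribed genes of growing yeast. The DNA-binding protein Rap1, with Fhl1, Ifh1 and, at many of them, Hmo1, activates their promoters, and signalling through TORC1, protein kinase A, Sch9 and Sfp1 adjusts them to nutrients and stress. In the environmental stress response RP genes typically fall together while general stress genes rise. Several RP proteins also limit their own gene, by blocking the splicing or hastening the decay of its transcript.

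How far reads can be assigned to a single paralog depends on the sequence. *RPL41A* and *RPL41B* encode the smallest ribosomal protein, which lies at the interface of the subunits, and their coding sequences of 78 bases are shown because they have the highest levels per kilobase and differ at a single base, C9T, with the base of *RPL41A* first and positions counted from the first base of the start codon. The differing base is in capitals.
RPL41A (chrIV:130407-130484, minus strand): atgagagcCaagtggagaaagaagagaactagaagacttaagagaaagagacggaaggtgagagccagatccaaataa
RPL41B (chrIV:221724-221801, minus strand): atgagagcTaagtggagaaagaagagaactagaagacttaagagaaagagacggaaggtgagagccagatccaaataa
Of the stretches of 59 bases, the read length, in either of these sequences, 45% are found nowhere else in the genome. Across all 57 pairs, 49 had at least 50% unique stretches in both genes and were treated as told apart. *RPL14*, at 54.5%, lay just inside this limit and *RPL41*, at 45%, just outside it. Other pairs outside it included *RPL35*, *RPL1* and *RPL7*, and values of the 16 genes outside it are uncertain as to paralog.

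In contrast, *RPL15A* and *RPL15B*, which encode the large subunit protein eL15, shared 93.2% of their coding bases yet had 89.6% unique stretches. Their upstream sequences are shown because *RPL15B* is the only RP gene that edgeR called higher in any of the 6 comparisons below while *RPL15A* did not. Bases 300 to 151 before each start codon are given from the R64 genome, and capitals mark matches, on either strand, to CCNTACA, a core of the Rap1 site.
RPL15A (chrXII:202741-202890, minus strand): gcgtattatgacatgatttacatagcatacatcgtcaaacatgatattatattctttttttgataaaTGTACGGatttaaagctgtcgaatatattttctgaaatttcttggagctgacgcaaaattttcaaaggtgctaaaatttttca
RPL15B (chrXIII:510499-510648, minus strand): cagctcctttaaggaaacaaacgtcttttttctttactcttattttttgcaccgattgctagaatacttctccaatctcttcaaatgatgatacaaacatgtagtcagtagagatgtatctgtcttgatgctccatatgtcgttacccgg
RPL41A (chrIV:130635-130784, minus strand): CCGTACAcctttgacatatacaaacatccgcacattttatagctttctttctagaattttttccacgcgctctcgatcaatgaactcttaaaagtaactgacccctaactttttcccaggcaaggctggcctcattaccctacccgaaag
*RPL15A* had 2 matches within 500 bases before its start codon and *RPL15B* had 0. In the 500 bases before the start codon, 79 of 132 RP genes (59.85%) held the core on either strand, against 15.87% of 6006 genes with such a window. The Abf1 site was found before 10 RP genes (7.58%, against 13.79%), 7 of which also held the Rap1 core, and the PAC element GCGATGAG before 1 (0.76%, against 4.83%). A match is a description of the letters, and its absence says nothing of whether the factor binds.

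RP transcripts were abundant in all groups. Levels are counts of a gene per 1000000 counts (CPM) of TMM-scaled libraries, averaged over the 15 libraries and divided by kilobases of coding sequence. The median RP gene stood at 1697 CPM per kilobase, with quartiles of 1249 and 2079. *RPL41A* (6027), *RPL41B* (4835) and *RPS31* (4365), which encodes a fusion of ubiquitin to the small subunit protein eS31, had the highest levels per kilobase. The coding sequences of both *RPL41* genes have only 78 bases, so their rank rests on the division by length. Without that division the median RP gene stood at 712 CPM, and every group mean of *RPL41A* given below was lower. *RPL43A* (5.53), *RPL39* (8.96) and *RPL22A* (24.2) had the lowest. Each of these low genes has a row on the opposite strand next to it that RefSeq does not list, and so do *RPL36B*, *RPL33A* and *RPL28*. *RPL39*, which encodes a small protein of the exit tunnel and has no paralog, had 6 to 41 counts per library, whereas its neighbouring row YJL188C had 797 to 1888. For *RPL43A* the counts were 4 to 36 against 97 to 308 for YPR044C. Altogether 25 RP genes have such a row on the opposite strand and another 9, *RPS22B* and *RPL41A* among them, have one on the same strand only. The strand setting of the counting was not stated, so reads of these genes and their neighbours cannot be told apart and the levels of the lowest genes are uncertain.

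The targeted genes followed the labels. *PDR3* had at most 1 count in any *pdr3*Δ library and 66.2 to 308 CPM in every *PDR3* library, and *PSD1*, *MGE1* and *MSS116* were each highest where the construct carries them. All 5 a cell markers were expressed (summed level 1043 to 1477 CPM), and of the alpha cell markers with rows, *STE3* had 3.0 to 12.2 CPM and *SAG1* 46.3 to 91.0 CPM. Total counts were 9128344 to 15953662 per library.

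RP genes took a smaller share of the counts in Psd1-overexpressing cells than in cells with either presequence. The share was 8.07%, 7.80% and 9.38% in *PSD1* OE replicates 1, 2 and 3, and 9.90%, 9.13% and 10.2% in *PSD1* OE *pdr3*Δ. It was 10.5%, 9.97% and 12.2% in MTSMge1, 11.9%, 10.8% and 13.4% in MTSMge1 *pdr3*Δ, and 12.5%, 9.70% and 13.9% in MTSMss116. All *PSD1* OE libraries lay below all libraries with a presequence. The *PSD1* OE *pdr3*Δ libraries lay below all MTSMge1 *pdr3*Δ libraries, but overlapped the MTSMge1 and MTSMss116 groups. Group means were 8.42% ± 0.845, 9.75% ± 0.563, 10.9% ± 1.19, 12% ± 1.33 and 12% ± 2.15 (SD, n = 3) in the same order. The last SD rests on replicate 2 of MTSMss116, without which the mean of that group was 13.2%. The large subunit held 4.55% and the small subunit 3.86% of the counts in *PSD1* OE, against 6.43% and 5.61% in MTSMss116. A share falls when other transcripts rise, and a change of all RNA per cell would not be seen in it.

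**Figure D1:**
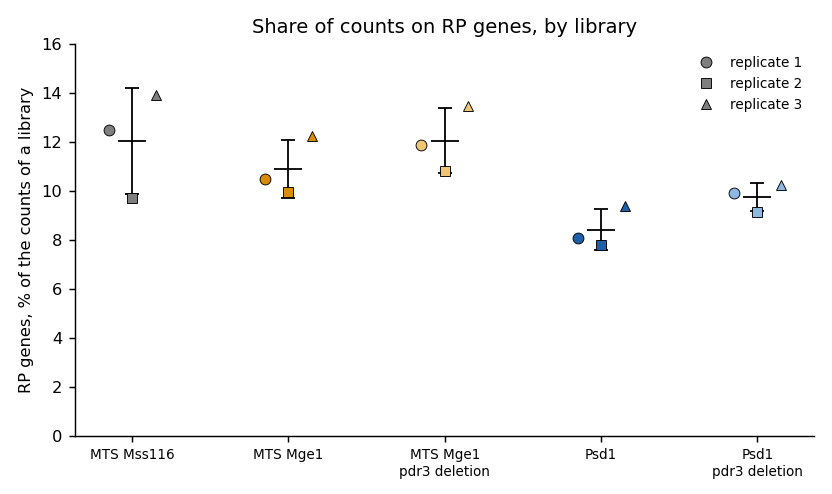
Percent of the counts of each library that fell on the 132 RP genes (y axis), by group (x axis), with the replicate number as the symbol, the group mean as a dash and the SD as a bar. The 3 *PSD1* OE libraries lie between 7.80% and 9.38%, below every library with a presequence, and in each group replicate 2 is lowest and replicate 3 highest.

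Psd1 overexpression was first set against the Mge1 presequence in *PDR3* cells. The median RP gene had a log2 fold change of -0.36, against -0.01 over all 6157 genes tested. A fold change below 0 was seen for 131 of 132 RP genes and for 51.7% of all genes. In 80 RP genes every *PSD1* OE library lay below every MTSMge1 library, as it did for 12.5% of all genes, and in 1, *RPL15B*, it lay above (14.4% of all genes). With edgeR's quasi-likelihood test and Benjamini-Hochberg adjustment over all genes, 5 RP genes were called lower (1.46% of all genes) and 1 higher (3.43%) at an adjusted p of 0.05 or less. At an unadjusted p under 0.05 there were 105 (21.3% of all genes). None changed by a log2 fold of 1 or more.

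*RPS22B*, for the small subunit protein uS8 (chrXII:856442-857317, plus strand, 1 intron in the coding sequence), fell most among the genes called. Its level was 141, 126 and 160 CPM in *PSD1* OE and 239, 208 and 254 CPM in MTSMge1. The groups did not overlap, and the log2 fold change was -0.73 ± 0.12 (SE), with an adjusted p of 0.0169 by edgeR. Its paralog *RPS22A*, from which it can be told apart, had 485, 478 and 595 CPM against 646, 613 and 867 CPM and was not called.

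*RPS14B* encodes uS11, a protein known to repress the splicing of the *RPS14B* transcript. It had 109, 92.1 and 110 CPM in *PSD1* OE and 169, 145 and 188 CPM in MTSMge1. All 3 libraries were again lower, with a log2 fold change of -0.70 ± 0.12 (SE) and an adjusted p of 0.0182 by edgeR. *RPS20*, for uS10 in the head of the small subunit, fell from 1293, 1237 and 1538 CPM to 919, 861 and 1021 CPM, by 0.55 ± 0.12 (SE) on the log2 scale (adjusted p = 0.0398, edgeR). *RPL28*, for uL15, the protein altered in cycloheximide-resistant *cyh2* mutants, fell from 112, 102 and 136 CPM to 80.5, 75.8 and 85.9 CPM (log2 fold change -0.54 ± 0.11, adjusted p = 0.0395, edgeR). *RPL28* is among the genes with an unlisted row on the opposite strand. *RPL41A* fell from 471, 481 and 528 CPM to 361, 332 and 387 CPM (log2 fold change -0.46 ± 0.10, adjusted p = 0.036, edgeR), though its reads are not fully separable from those of *RPL41B*.

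*RPL15B* went the other way. It had 66.9, 61.9 and 73.9 CPM in *PSD1* OE and 51.5, 51.5 and 48.2 CPM in MTSMge1, without overlap, and rose by 0.42 ± 0.09 (SE) on the log2 scale (adjusted p = 0.0417, edgeR). *RPL15A*, the major copy, had 1355, 1330 and 1581 CPM against 1693, 1618 and 2017 CPM. Calls were lost when single libraries were left out, and such fits also have less power. The median RP log2 fold change stayed between -0.45 and -0.24 in them. The 6 calls became 0 without MTSMge1 replicate 1, without *PSD1* OE replicate 1 or without *PSD1* OE replicate 2, and 2 without MTSMge1 replicate 2 or *PSD1* OE replicate 3, and *RPL15B* was not called in any fit that left out a library. Under DESeq2 39 RP genes were called, 38 lower, with 10.5% of all genes called in either direction. With the replicate number as a block edgeR called 125, of which 124 were lower (8.88% of all genes lower, 9.84% higher).

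**Figure D2:**
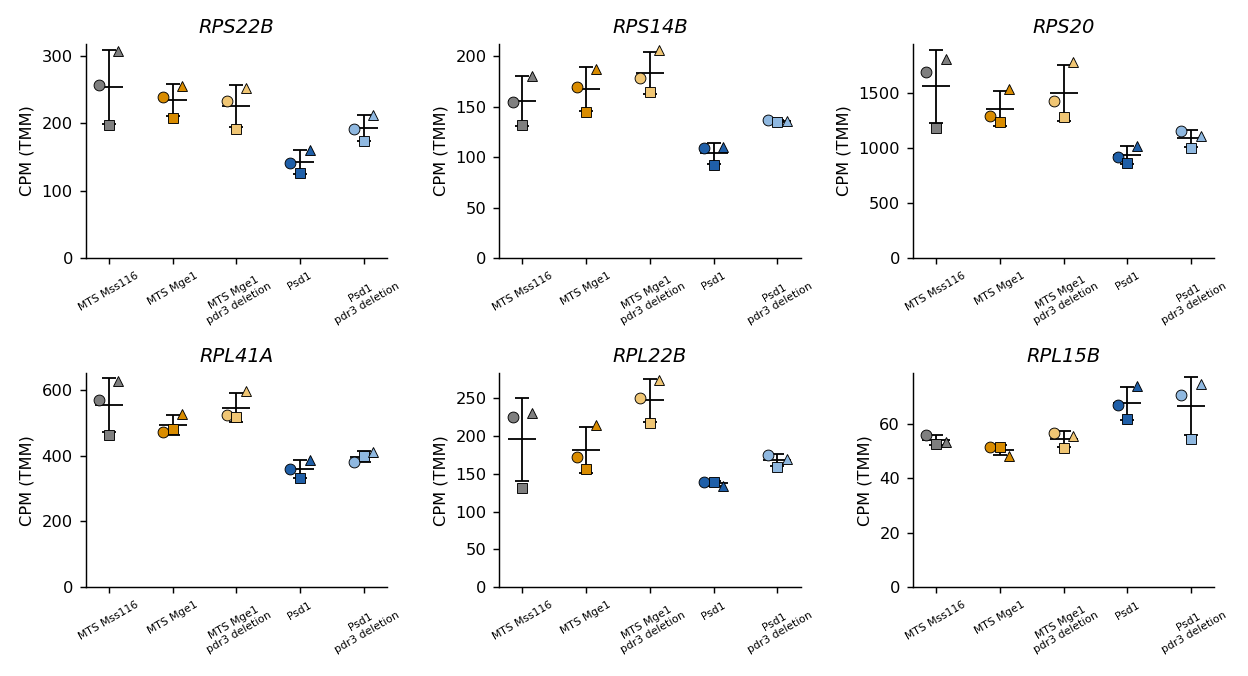
CPM (TMM-scaled, y axis) of 6 RP genes in the 15 libraries by group (x axis), with the replicate number as the symbol, the group mean as a dash and the SD as a bar. *RPS22B*, *RPS14B*, *RPS20* and *RPL41A* are lower in all 3 *PSD1* OE libraries than in any MTSMge1 library, whereas *RPL15B* is higher, at 61.9 to 73.9 CPM against 48.2 to 51.5 CPM.

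Against MTSMss116, with the same *PSD1* OE libraries, the median RP log2 fold change was -0.51 (0.01 over all 6168 genes), and 130 of 132 RP genes were below 0. The groups did not overlap, with *PSD1* OE lower, for 62 RP genes (13.8% of all genes), and with *PSD1* OE higher for 1, *RPL15B* (15.9%), which was not called (log2 fold change 0.34, adjusted p = 0.0819, edgeR). edgeR called 2 RP genes lower (1.91% of all genes) and 0 higher (4.25%), while 122 had an unadjusted p under 0.05 (24.5% of all genes). *RPS22B* had 256, 197 and 306 CPM in MTSMss116, above the 126 to 160 CPM of *PSD1* OE (log2 fold change -0.82 ± 0.17, adjusted p = 0.0412, edgeR). *RPL41A* had 571, 464 and 626 CPM there, also above all *PSD1* OE libraries (log2 fold change -0.61 ± 0.14, adjusted p = 0.0492, edgeR). *RPS14B*, at 155, 132 and 180 CPM in MTSMss116, was not called (log2 fold change -0.57 ± 0.14, adjusted p = 0.0571, edgeR). The number of calls in this edgeR fit hung on replicate 2 of MTSMss116. Without it 128 RP genes were called, all lower, with 24.2% of all genes called in either direction, and the median was -0.67. Without any other library of these groups 0 were called. DESeq2 on all 6 libraries called 89 RP genes, 88 of them lower (15.1% of all genes in either direction), and edgeR with all 5 groups in the fit called 92, all lower (15.8%). With the replicate number as a block edgeR called 105, all lower (5.69% of all genes lower, 8.37% higher).

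In *pdr3*Δ cells Psd1 overexpression was likewise compared with the Mge1 presequence. The median RP log2 fold change was -0.26 (0.01 over all 6161 genes), 130 of 132 RP genes were below 0, and 54 had all *PSD1* OE *pdr3*Δ libraries below all MTSMge1 *pdr3*Δ libraries (12.8% of all genes), with 0 the other way (15.2%). By edgeR 5 RP genes were called lower (1.74% of all genes) and 0 higher (2.19%), with 49 at an unadjusted p under 0.05 (21.2% of all genes). Both *RPL22* genes were among them. Rpl22 (eL22) is known to inhibit the splicing of *RPL22B* transcripts. *RPL22B* fell from 251, 217 and 274 CPM to 175, 159 and 169 CPM (log2 fold change -0.56 ± 0.10, adjusted p = 0.0352, edgeR). *RPL22A* fell from 12, 11 and 12.7 CPM to 5.37, 6.70 and 6.25 CPM (log2 fold change -0.97 ± 0.16, adjusted p = 0.0286, edgeR), on counts that ran from 60 to 191 across all libraries. *RPL22A* is another gene with an unlisted row on the opposite strand.

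The remaining calls were *RPL41A* (log2 fold change -0.46 ± 0.09, adjusted p = 0.043), *RPS29A*, for the small subunit protein uS14 (-0.45 ± 0.10, adjusted p = 0.0487), and *RPS14B* (-0.44 ± 0.09, adjusted p = 0.0487), all by edgeR. *RPS14B* had 137, 135 and 135 CPM in *PSD1* OE *pdr3*Δ and 179, 165 and 206 CPM in MTSMge1 *pdr3*Δ. *RPS29A* had 242, 218 and 240 CPM against 300.4, 300.4 and 352 CPM. In each of the 5 genes called, the libraries of the groups did not overlap. The count fell to 0 without MTSMge1 *pdr3*Δ replicate 1 or without any of the 3 *PSD1* OE *pdr3*Δ libraries, to 3 without MTSMge1 *pdr3*Δ replicate 2, and was 5 without its replicate 3, where the median was -0.16. With the replicate number as a block edgeR called 56, all lower (6.67% of all genes lower, 8.73% higher).

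**Figure D3:**
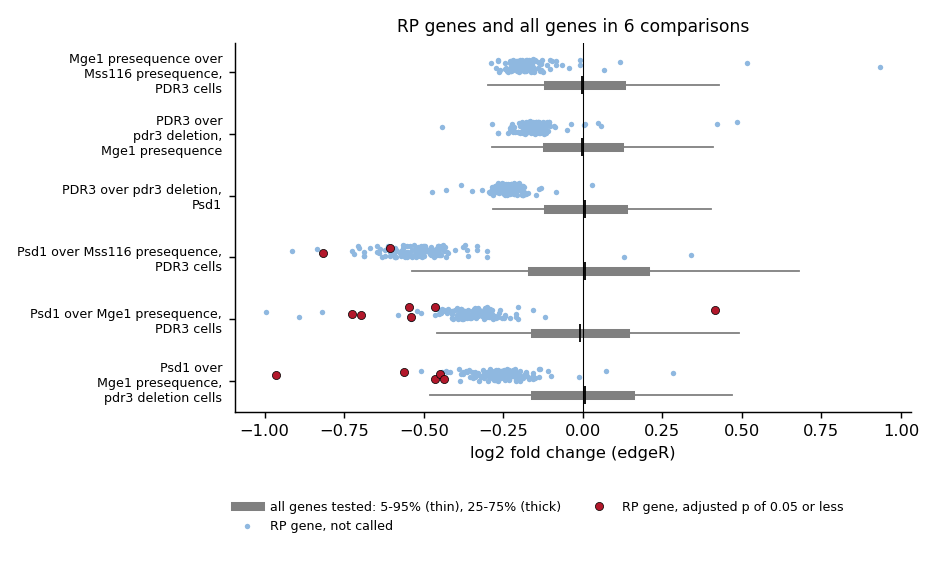
Log2 fold changes by edgeR (x axis) of the 132 RP genes (points, red where the adjusted p was 0.05 or less) and of all genes tested (grey bars, with the median as a black tick) in 6 comparisons (y axis). The RP medians lie at -0.18, -0.16, -0.24, -0.51, -0.36 and -0.26 from top to bottom, and those of all genes within 0.01 of 0.

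The effect of *PDR3* was read within each construct. Under Psd1 the strain list gives a 2-micron plasmid for the *pdr3*Δ strain only. There an effect of *PDR3* cannot be told apart from one of the plasmid. Within both constructs same-numbered libraries of the groups deviated together, with every correlation above the limit of 0.1. The fit with the replicate number as a block therefore stands beside the one without. Between constructs the correlations did not all exceed 0.1, but 4 to 6 of 6 libraries correlated best with their own number. With the block 125 RP genes were called for *PSD1* OE over MTSMge1 (8.88% of all genes lower, 9.84% higher). There were 105 over MTSMss116 (5.69%, 8.37%) and 56 in *pdr3*Δ cells (6.67%, 8.73%). Under Psd1 the median RP log2 fold change of *PDR3* over *pdr3*Δ was -0.24 (0.01 over all 6150 genes) and 131 of 132 RP genes were below 0. Without the block edgeR called 0 RP genes, lower (0.114% of all genes) or higher (0.602%), although 72 had an unadjusted p under 0.05 (13.2% of all genes), and DESeq2 called 4 (2.11%). Leaving out *PSD1* OE replicate 3 gave 4 calls (1.97%). With the block 72 RP genes were called lower (4.83% of all genes) and 0 higher (4.98%). The groups did not overlap for 21 RP genes, all lower in *PDR3* cells (7.76% of all genes lower and 9.14% higher).

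The smallest p-values under Psd1 belonged to *RPS14B*, *RPS9A* and *RPL22B*. *RPS9A*, for uS4, had 340, 320 and 399 CPM with *PDR3* and 509, 450 and 516 CPM without it, a log2 fold change of -0.47 ± 0.10 (SE), with an adjusted p of 0.13 without the block and 0.00471 with it by edgeR. *RPS14B* had a log2 fold change of -0.38 ± 0.08 (SE) and adjusted p-values of 0.107 and 0.00942 in the same fits. For *RPL22B* these were -0.28 ± 0.06 (SE), 0.14 and 0.0175. In all 3 genes each *PDR3* library was below each *pdr3*Δ library.

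Under the Mge1 presequence the median RP log2 fold change of *PDR3* over *pdr3*Δ was -0.16 (0.00 over all 6184 genes), and 126 of 132 RP genes were below 0. The median was -0.27 without MTSMge1 replicate 3, -0.25 without MTSMge1 *pdr3*Δ replicate 2, -0.09 without MTSMge1 replicate 2 and -0.03 without MTSMge1 *pdr3*Δ replicate 3. edgeR without the block and DESeq2 both called 0 RP genes (0.0647% of all genes called lower and 0.663% higher by edgeR), and 1 had an unadjusted p under 0.05 (5.22% of all genes). With the block 9 were called lower (2.44% of all genes) and 0 higher (3.54%). Groups did not overlap for 1 RP gene, which was lower (4.61% of all genes lower and 6.19% higher). *RPL22B* had the smallest p, with 172, 157 and 215 CPM in MTSMge1 and 251, 217 and 274 CPM in MTSMge1 *pdr3*Δ. It was the RP gene whose groups did not overlap. Its log2 fold change was -0.44 ± 0.14 (SE), with an adjusted p of 0.792 without the block and 0.00362 with it. *RPS27A*, for eS27 (-0.27 ± 0.15, adjusted p = 0.862 and 0.0368), and *RPS29A* (-0.28 ± 0.16, adjusted p = 0.862 and 0.0396) followed in the same edgeR fits.

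Whether the effect of *PDR3* differed between the constructs was tested as an interaction over 12 libraries. By edgeR 0 RP genes passed, lower (0.0160% of all 6238 genes) or higher (0%), 1 had an unadjusted p under 0.05 (2.90% of all genes), and DESeq2 also called 0. That gene was *RPS22B*, whose levels were 141, 126 and 160 CPM in *PSD1* OE and 191, 174 and 212 CPM in *PSD1* OE *pdr3*Δ, but 239, 208 and 254 CPM in MTSMge1 and 232, 191 and 252 CPM in MTSMge1 *pdr3*Δ. It was lower with *PDR3* under Psd1 and overlapped under the presequence. The listed plasmid differs between the genotypes under Psd1 only, so the interaction cannot be told apart from it. The interaction was -0.48 ± 0.18 (SE) with an adjusted p of 1 by edgeR, and -0.49 ± 0.08 (SE) with an adjusted p of 0.0277 with the replicate block, where it was the only RP gene called (0.128% of all genes). *RPS9A* (-0.33 ± 0.20), *RPS14B* (-0.25 ± 0.16), *RPL9B*, for uL6 (-0.19 ± 0.13), and *RPL41B* (-0.20 ± 0.14) followed, all with an adjusted p of 1.

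The presequences of Mge1 and Mss116 in *PDR3* cells gave no call among RP genes. The median RP log2 fold change of MTSMge1 over MTSMss116 was -0.18 (0.00 over all 6184 genes) and 128 of 132 RP genes were below 0, but edgeR and DESeq2 called 0 (0.0323% of all genes called lower and 0.614% higher by edgeR), 0 had an unadjusted p under 0.05 (7.02% of all genes), and the groups did not overlap for 1, *RPL15B*, at 48.2 to 51.5 CPM in MTSMge1 and 52.6 to 56.0 CPM in MTSMss116 (6.42% of all genes lower and 6.50% higher). The smallest p was that of *RPL39*, which had few counts (log2 fold change 0.93 ± 0.54, adjusted p = 0.843, edgeR), followed by *RPS9B* (-0.29 ± 0.19, adjusted p = 0.874) and *RPL37B*, for eL37 (-0.26 ± 0.18, adjusted p = 0.891). *RPS9B* had 1027, 961 and 1194 CPM in MTSMge1 and 1392, 970 and 1557 CPM in MTSMss116, so that only replicate 2 of MTSMss116 lay within the MTSMge1 range. Without that library the median over the RP genes was -0.34, without MTSMge1 replicate 3 it was -0.31, and without MTSMss116 replicate 3 it was -0.05.

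Medians were also taken by subunit, intron, level and motif, without a test. For *PSD1* OE over MTSMge1 the median was -0.34 for 76 large subunit genes and -0.37 for 56 small subunit genes. It was -0.36 both for the 88 genes with an intron in the coding sequence and for the 44 without. Genes with at least 50% unique stretches had a median of -0.36 (n = 116) and the other 16 of -0.34. The lower and upper 66 genes by level had medians of -0.34 and -0.37. Genes with the Rap1 core in their upstream window had a median of -0.36 and those without it -0.35.

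A single test over all 15 libraries asked which RP genes differed among the 5 groups. edgeR called 12 of 132, or 945 of 6251 genes overall (15.1%). The 5 smallest p-values belonged to *RPL41A* (adjusted p = 0.00307), *RPS14B* (0.00402), *RPS22B* (0.0155), *RPL22A* (0.0183) and *RPS20* (0.0199). *RPS31*, *RPL15B*, *RPS29A*, *RPL28*, *RPL22B*, *RPS18A* and *RPL43B* made up the rest. For *RPL41A* the mean was 360.0 CPM ± 27.7 (SD, n = 3) in *PSD1* OE and 397 CPM ± 16.3 in *PSD1* OE *pdr3*Δ, against 493 CPM ± 30.3 in MTSMge1, 546 CPM ± 44.1 in MTSMge1 *pdr3*Δ and 553 CPM ± 82.4 in MTSMss116. The means of MTSMge1 *pdr3*Δ and MTSMss116 differed by less than their SDs. *RPS31* was lowest in *PSD1* OE as well, at 1380, 1325 and 1676 CPM, with 1794, 1634 and 1891 CPM in *PSD1* OE *pdr3*Δ and at least 1898 CPM in every library with a presequence. Without replicate 2 of MTSMss116 the test called 111 RP genes (19.2% of all genes), and without MTSMge1 replicate 3 it called 22. It called 3 and 4 without *PSD1* OE replicates 1 and 2, 6 without MTSMss116 replicate 1, MTSMge1 *pdr3*Δ replicate 1 or *PSD1* OE *pdr3*Δ replicate 3, and 7 without MTSMge1 *pdr3*Δ replicate 3 or *PSD1* OE *pdr3*Δ replicates 1 or 2. DESeq2 called 81 (25.4% of all genes). Counts given here without a share of all genes do not tell RP genes from genes in general.

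RP genes also differed by replicate number, which the labels give alike in all groups. In all 5 groups replicate 2 had the lowest and replicate 3 the highest share of counts on RP genes. In a fit with group and replicate number, edgeR called 126 of 132 RP genes for the replicate number, against 36.3% of all genes. With each library left out in turn 124 to 127 were called. Replicate 3 over 2 had a median RP log2 fold change of 0.37, with 127 called higher (20.2% of all genes), replicate 3 over 1 had a median of 0.20, with 85 called higher (9.18% of all genes), and replicate 2 over 1 had a median of -0.17, with 0 called (0.256% of all genes called higher and 0.128% lower). *RPS12*, for eS12, had the smallest p (adjusted p = 0.000907, edgeR). It stood at 1344, 1275 and 1668 CPM in replicates 1, 2 and 3 of MTSMge1, at 983, 949 and 1248 CPM in *PSD1* OE and at 1708, 1285 and 2031 CPM in MTSMss116, so that replicate 3 was highest in each. *RPS22B* and *RPS21A*, for eS21 (adjusted p = 0.000924 each), *RPL9A* (0.000949) and *RPL6A*, for eL6 (0.000966), followed. The 6 RP genes not called were *RPL22B*, *RPL15B*, *RPL36B*, *RPL39*, *RPL43A* and *RPL22A*. Replicate 2 of MTSMss116 stood farthest from its group, with a median RP deviation of -0.35 from the group mean of log2(CPM + 1) and 0 of 132 genes above that mean. The labels do not say whether a replicate number marks a day, a culture or a preparation.

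**Figure D4:**
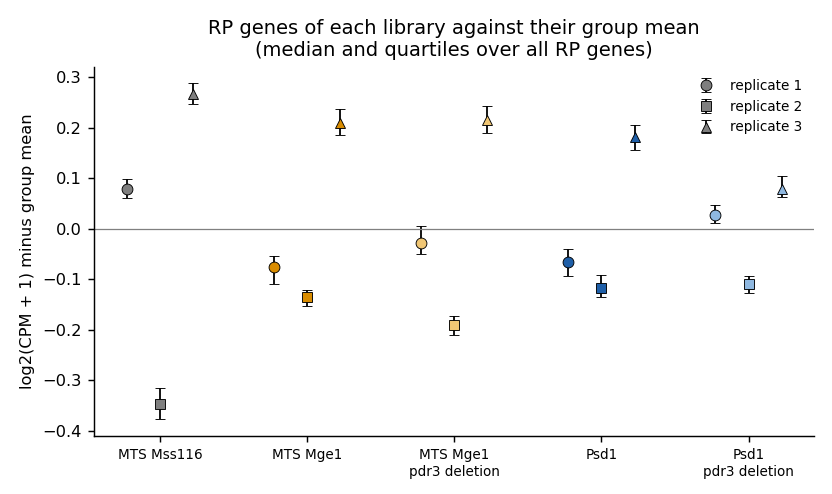
Log2(CPM + 1) of the RP genes in each library minus the mean of its group (y axis), as the median (symbol) and quartiles (bars) over 132 genes, by group (x axis). Replicate 3 lies above the group mean in all 5 groups, by 0.08 to 0.27, and replicate 2 below it, by as much as -0.35 in MTSMss116.

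General stress genes were read beside the RP genes in the same libraries. The summed level of 10 of them (*CTT1*, *HSP12*, *HSP26*, *DDR2*, *TPS2*, *TSL1*, *GSY2*, *PGM2*, *HSP104* and *SSA4*) was 2776 to 4566 CPM in *PSD1* OE and 2518 to 3599 CPM in *PSD1* OE *pdr3*Δ. It was 965 to 2076 CPM in MTSMge1, 681 to 2043 CPM in MTSMge1 *pdr3*Δ and 625 to 2418 CPM in MTSMss116. All libraries with Psd1 lay above all libraries with a presequence in this sum, of which *HSP12* was the largest part in each Psd1 library. *HSP12* had 1277 to 1691 CPM in *PSD1* OE and 1153 to 1475 CPM in *PSD1* OE *pdr3*Δ, against 132 to 713 CPM with a presequence. Not all 10 genes rose. *TPS2* and *PGM2* had means of 197 and 144 CPM in *PSD1* OE, against 225 and 150 CPM in MTSMge1. In each group replicate 3, with the highest RP share, had the lowest sum. The highest value of MTSMss116 was that of replicate 2, in which *HSP26*, for a small heat shock protein, had 216 CPM against 9.55 and 4.82 CPM in its other libraries. For *PSD1* OE over MTSMge1, *HSP26*, *HSP12*, *DDR2* and *SSA4* were called higher by edgeR (log2 fold changes 4.01, 1.52, 1.45 and 1.21), 0 were lower, and the median was 1.12. Over all genes 3.43% were called higher and 1.46% lower. Each of the 4 lost its call without at least 1 of the libraries, all of them without MTSMge1 replicate 2. *HSP12* was also the only member called for *PSD1* OE over MTSMss116 (2.09) and in *pdr3*Δ cells (1.84), and 0 were called in the other 3 comparisons. Over all genes 4.25% were called higher over MTSMss116 and 2.19% in *pdr3*Δ cells. What part general stress has in the RP differences was not tested. For the replicate number, medians from the blocked and unblocked edgeR fits can be compared. The RP median of *PSD1* OE over MTSMge1 was -0.359 in both. Over MTSMss116 it was -0.497 in the blocked and -0.513 in the unblocked fit. In *pdr3*Δ cells Psd1 over the Mge1 presequence gave -0.256 and -0.264 in the same order.

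Genes that serve the ribosome outside the RP symbols were read from fixed lists in the same fits. The 5 stalk proteins (*RPP0*, *RPP1A*, *RPP1B*, *RPP2A* and *RPP2B*) and *ASC1*, a scaffold protein on the small subunit, had 0 of 6 called in each of the 6 comparisons, with medians of -0.36 for *PSD1* OE over MTSMge1 and -0.55 over MTSMss116, where the RP medians were -0.36 and -0.51. In contrast, the median of 16 ribosome biogenesis genes, whose proteins process ribosomal RNA and assemble subunits, was -0.03 and -0.14 in those comparisons, with 0 called. Chaperones dedicated to RP proteins (9 genes such as *RRB1*, *SQT1* and *ACL4*) had medians of 0.05 and 0.02, and 0 of them were called. For elongation factors the medians were -0.06 and -0.17 over 10 genes tested, again with 0 called. Of that list *HYP2* had 0 counts in every library and *ANB1* only 4 to 22. Over all genes 1.46% and 1.91% were called lower, and 3.43% and 4.25% higher, in those comparisons. In lists this short 0 calls lies near these shares. Against the RP median of -0.36 for *PSD1* OE over MTSMge1 these 3 lists stood between -0.06 and 0.05, and the difference was not tested. Of 10 regulators of RP transcription, *HMO1*, for the promoter-binding HMG protein, fell in *PSD1* OE against both MTSMge1 (log2 fold change -0.43 ± 0.08, adjusted p = 0.0305, edgeR) and MTSMss116 (-0.57 ± 0.12, adjusted p = 0.0354). *CRF1*, a corepressor of RP genes, rose against MTSMss116 (0.56 ± 0.11, adjusted p = 0.0298). The calls against MTSMss116 held only without its replicate 2 among fits that left out a library, and the call of *HMO1* against MTSMge1 only without MTSMge1 replicate 3. *RAP1*, *FHL1*, *IFH1*, *SFP1*, *STB3*, *SCH9*, *DOT6* and *TOD6* were not called in any of the 6 comparisons. A list of 8 RP genes was fixed for known feedback on transcripts of the gene or of its paralog. Of these, 1 fell in *PSD1* OE over MTSMge1 (median -0.41) and 3 in *PSD1* OE *pdr3*Δ over MTSMge1 *pdr3*Δ (median -0.34). Among all 132 RP genes 5 fell in each (1.46% and 1.74% of all genes). Whether the 8 genes differ from other RP genes was not tested.

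Within a library the ratio of A to B paralog needs no scaling between libraries. It was taken as the log2 of A over B in reads per kilobase for the 49 pairs told apart. A was higher in all 15 libraries for 24 pairs and B for 22. The median size of the log2 ratio was 0.51, and 11 pairs differed by more than 2-fold. *RPL43*, at -8.03, *RPL15*, at 4.92, and *RPL22*, at -4.43, were the most unequal. For *RPL43* and *RPL22* the gene with fewer counts, *RPL43A* or *RPL22A*, is among those with an unlisted row on the opposite strand. These ratios are therefore uncertain and do not show which copy is expressed more. *RPL15B* has no such neighbour, and *RPL15A* was 30.3 times as high as *RPL15B* over the 15 libraries. *RPL34* (0.01), *RPS18* (-0.05) and *RPS1* (0.06) were the least unequal. Among the 26 pairs without an unlisted neighbour, a choice made after seeing the data, the median size was 0.32 and 3 pairs differed by more than 2-fold.

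The ratio was then compared across the groups. The range of the 5 group means had a median of 0.13 over the 49 pairs and was 0.03 for *RPS18*, the narrowest. It was widest for *RPL43* (1.01), *RPL15* (0.82) and *RPL22* (0.69). The *RPL43* range rests on 4 to 36 counts of *RPL43A*. For *RPL15* the log2 ratio was 4.34, 4.43 and 4.42 in *PSD1* OE and 4.60, 4.85 and 4.56 in *PSD1* OE *pdr3*Δ. It was 5.04, 4.97 and 5.39 in MTSMge1, 5.10, 5.08 and 5.36 in MTSMge1 *pdr3*Δ, and 5.24, 4.91 and 5.50 in MTSMss116. All 6 libraries with Psd1 lay below all 9 with a presequence, and in the groups with a presequence replicate 3 was highest. For *RPL22* the ratio was -4.44, -4.48 and -5.12 in *PSD1* OE and -5.0, -4.55 and -4.74 in *PSD1* OE *pdr3*Δ, and lay between -4.41 and -4.04 in the other groups.

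*RPS9* (0.61) and *RPL9* (0.59) came next and, with *RPS14*, were chosen after their values were seen. *RPS9A* was below *RPS9B* everywhere, with log2 ratios of -0.95, -0.97 and -1.03 in *PSD1* OE *pdr3*Δ, -1.25, -1.15 and -1.20 in *PSD1* OE, -1.29, -1.41 and -1.35 in MTSMge1, -1.39, -1.47 and -1.43 in MTSMge1 *pdr3*Δ, and -1.51, -1.68 and -1.61 in MTSMss116. Among these groups only MTSMge1 and MTSMge1 *pdr3*Δ overlapped. The row next to *RPS9B* that RefSeq does not list had 1 to 11 counts. *RPL9* moved from 0.41, 0.19 and 0.68 in MTSMss116 to -0.22, -0.20 and 0.17 in *PSD1* OE, where it overlapped with no library of MTSMss116, and it was highest in replicate 3 of every group. For *RPS14* the ratio was 2.46, 2.60 and 2.59 in MTSMge1, 2.73, 2.94 and 3.01 in *PSD1* OE and 2.92, 2.72 and 2.88 in MTSMss116. With 3 libraries a group the smallest exact two-sided p is 0.1, so no test was run on these ratios.

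**Figure D5:**
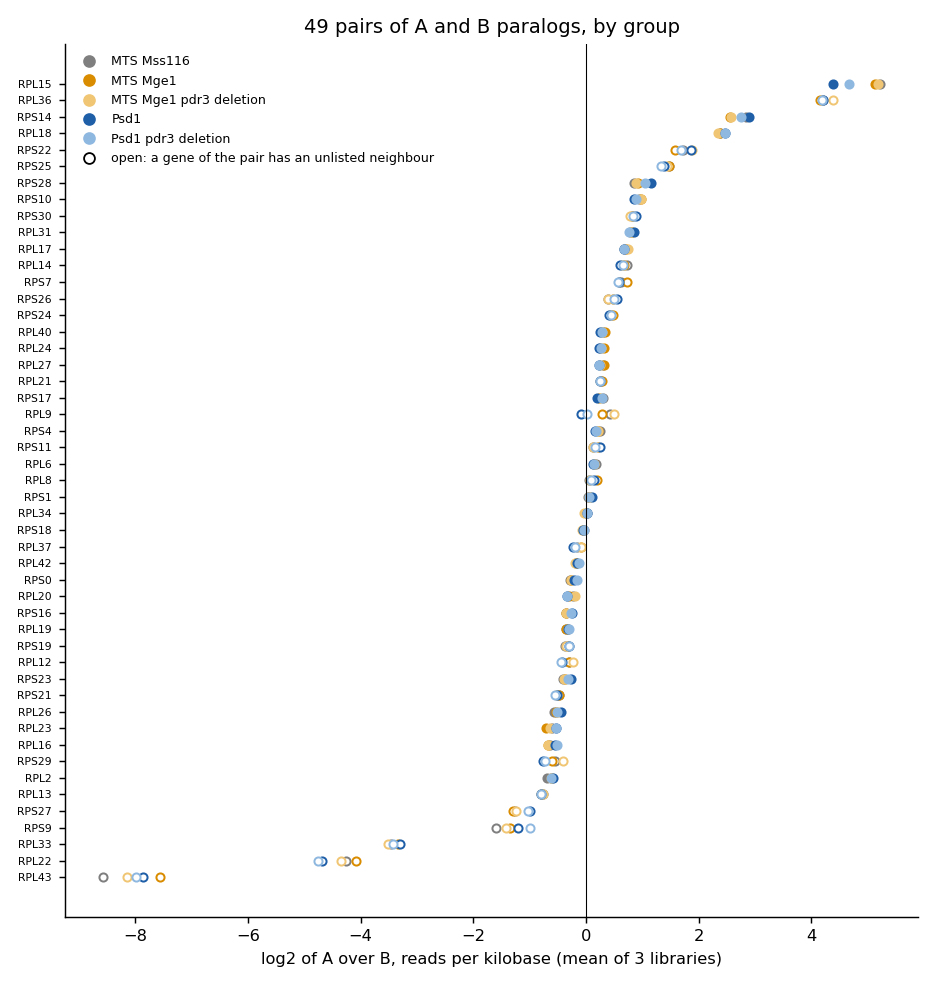
Log2 of A over B in reads per kilobase (x axis, mean of 3 libraries) for the 49 pairs told apart (y axis), with 1 point for each of the 5 groups and open points where a gene of the pair has an unlisted neighbouring row. Most pairs lie within 1 of 0, *RPL43*, *RPL22* and *RPL15* lie farthest out, and the points of *RPL15* are lower in the groups with Psd1, at 4.4 and 4.67, than in the others.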

How the data were processed

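The authors prepared stranded mRNA libraries of 15 samples, sequenced paired reads, aligned them to R64-1-1 with the DRAGEN RNA app and counted reads per gene with featureCounts. The deposited values are whole-number counts without normalization. Strand setting and treatment of multiply mapped reads are not given in the sources used here, and both could shift reads between paralogs or onto opposite-strand neighbours. All 15 columns were used.

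For the tests, edgeR 4.0.16 (R 4.3.3) was applied to the counts (filterByExpr, TMM, quasi-likelihood F-test, Benjamini-Hochberg adjustment over all genes tested, adjusted p of 0.05 or less), with only the compared groups in a fit, after checks on simulated data. Standard errors come from the F statistic. CPM use TMM-scaled library sizes. Paralog ratios carry a pseudocount of 0.5. Stretches of 59 bases of RefSeq R64 coding sequences were counted over both strands of the genome with Python 3.11.15 to find the unique ones. Motifs were searched in the 500 bases before start codons. Total counts ran from 9128344 to 15953662, which sets the counting error of low genes. Of the 7127 identifiers, 6047 matched RefSeq.

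The pairing by replicate number comes from the labels. Correlations of same-numbered deviations from the group means were 0.232 to 0.576 for MTSMge1 and 0.128 to 0.488 for Psd1 between genotypes, all above the limit of 0.1, so a blocked fit stands beside these results. Alternatives were DESeq2 1.42.0, RLE factors, total library size, TMM without RP genes, no filter, the replicate block, all 5 groups in a fit and each library left out. Genes were named by rule: the 5 called with the largest change in each direction, 3 or 5 with the smallest p, the extremes of level and paralog ratio, and fixed lists. *RPS22A*, *RPL15A* and *RPS31* beside the group test were named outside it. Members, lists and tests were chosen with earlier results of these data known.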

Additional observations from a re-analysis of the deposited data

How the results depend on the processing

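Every RP median stayed below 0 under the alternatives run. With single libraries left out the medians ran from -0.34 to -0.05 for MTSMge1 over MTSMss116, -0.27 to -0.03 and -0.33 to -0.18 for *PDR3* over *pdr3*Δ under MTSMge1 and Psd1, -0.67 to -0.38 for *PSD1* OE over MTSMss116, -0.45 to -0.24 over MTSMge1 and -0.35 to -0.16 in *pdr3*Δ cells. Counts of calls depended on the fit, and the cause was not tested. Where no share of all genes is given with a count, the count does not tell RP genes from genes in general. DESeq2 called 89 RP genes for *PSD1* OE over MTSMss116, 39 over MTSMge1, 12 in *pdr3*Δ cells (9.53% of all genes), 4 for *PDR3* over *pdr3*Δ under Psd1 and 81 among the 5 groups. With total library sizes *PSD1* OE over MTSMss116 had 5 calls and the 5 groups 46. TMM without RP genes gave 1 call for *PSD1* OE over MTSMss116 and 3 in *pdr3*Δ cells, where RLE factors and no filter on low counts also gave 3. With all 5 groups in a fit these were 92 and 2. The replicate block gave 9 and 72 calls for *PDR3* over *pdr3*Δ under MTSMge1 and Psd1 and 1 in the interaction. In the other comparisons, where same-numbered correlations did not all exceed 0.1, the block gave 105 for *PSD1* OE over MTSMss116 (5.69% of all genes lower, 8.37% higher), 125 over MTSMge1 (8.88%, 9.84%), 56 in *pdr3*Δ cells (6.67%, 8.73%), 129 among the 5 groups (35.4% of all genes) and 0 for MTSMge1 over MTSMss116. There the lowest same-numbered correlations were -0.114 to 0.0904, and 4, 4, 5 and 6 of 6 libraries correlated best with their own number. With single libraries left out, calls were 0 to 4 for *PDR3* over *pdr3*Δ under Psd1, 0 to 128 for *PSD1* OE over MTSMss116, 0 to 5 over MTSMge1, 0 to 5 in *pdr3*Δ cells and 3 to 111 among the 5 groups. Of 716 values of single named genes under alternatives, 580 kept their side of the threshold, 119 lost the call and 17 gained it. Among the values that were fold changes 0 reversed. For the tests among the 5 groups and by replicate number only adjusted p-values were compared, so no direction was checked there. Without pairs with an unlisted neighbour the median size of the paralog ratio was 0.32 (chosen after seeing the data). Low counts limit *RPL43A*, *RPL39* and *RPL22A*.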
